A study of Homo sapiens with 4 samples.

Results

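The windows described here are stretches of RNA that the authors' table of YTHDF1-bound windows lists under more than 1 gene of the same strand. A window was taken as a member when it overlapped, by 1 bp or more, a window listed under another gene identifier on the same strand. After 1 exact repeat was dropped from the 26820 rows, 2977 of 26819 listed windows were members, or 11.1% (95% Wilson interval 10.7 to 11.5). They belonged to 1058 of the 7550 listed genes, or 14.0%. The rule used positions, strands and gene identifiers. It acts on a table that holds only windows with a q-value of 0.05 or less and at most 9 for a gene, so a member needed a listed window in both genes, and membership also depends on the binding values of both.

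The question behind the libraries was which RNAs YTHDF1 binds in SNU638, a gastric cancer cell line, under interferon-γ (IFN-γ). YTHDF1 was overexpressed in all 4 libraries, the inputs included, and the cells were kept for 24 h without serum and then for 24 h with IFN-γ at 10 ng/ml. There were 2 libraries of RNA pulled down with YTHDF1 (IP-YTHDF1; an antibody to FLAG, per the study's methods) and 2 Input libraries, labelled as biological replicates. No untreated group and no group without the overexpression was analysed here.

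The authors' deposited table gives each 50 bp window a signal value, a p-value and a q-value for IP-YTHDF1 over Input, already merged over the replicates. No source used here gives the scale of that signal value, so it serves as a score in which higher is stronger. The table holds no read counts and no value per library, so depth and the spread between replicates are unknown, and all comparisons are descriptions without a test. Windows of 1 table are not replicates. A shared window is also no independent observation of its partner, since both were read from the same libraries over some of the same bases.

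YTHDF1 is a cytoplasmic reader protein that recognises N6-methyladenosine (m6A) in RNA and is known for its part in the translation and decay of the transcripts it binds. An immunoprecipitated fragment reports only the sequence it came from. Where 2 annotated genes run in the same direction over the same bases, as a gene and its read-through transcript, a long isoform that starts in a neighbour, or a small gene nested in a larger one do, the fragment fits both. Read-through genes are annotated transcripts that continue from 1 gene into the next, and their symbols join both names with a hyphen.

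The 2977 windows formed 2162 overlapping window pairs between 617 gene pairs. The overlap ran from 1 to 50 bp with a median of 32 bp, and its interquartile range from 18 to 42 bp. In 60 window pairs, from 17 gene pairs, the coordinates were the same. Joined where they overlapped, the members reduced to 971 distinct regions of 50 to 350 bp, median 76 bp, and covered 88387 bp where the windows laid end to end would have covered 148850 bp. A single other gene was involved for 2729 windows, and more than 1 for 248. The largest number of other genes at 1 window was 5. Both strands contributed, with 1532 members on the plus strand and 1445 on the minus strand. Overlap across strands was rarer: 233 listed windows, or 0.869%, overlapped a window of a gene on the opposite strand, and 21 of these were also members.

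Sequence was at hand for members near annotated gene starts, from RefSeq's start regions on GRCh38.p14, which run from 250 bases before to 50 bases after each start. The search left out 1 chromosome and the shortest overlaps, so its counts do not cover every window pair. Among the window pairs searched, the bases common to both windows lay inside such a region for 34, from 25 gene pairs. The smallest number of common bases among these was 17. The stretches printed are 30 bases or fewer on the sense strand, 5′ to 3′, from the 3 gene pairs with the highest mean signal value in each of 4 classes, and they show what being shared means at the level of bases. Capitals mark bases common to the 2 windows of the window pair shown, and lower-case bases lie in 1 of these 2 windows only. A further listed window of the other gene can still cover lower-case bases, as at the end of the ASDURF stretch.
Read-through genes and 1 of the genes they are named for:
TVP23C and TVP23C-CDRT4, chr17:15563491-15563520, minus strand: tcagttCCGACCCGGACCCGTACGCTGCTG
RPL36A-HNRNPH2 and HNRNPH2, chrX:101408217-101408246, plus strand: tgattaCTCGCTTACGTGAGCAGAAGTAGT
RBM14-RBM4 and RBM14, chr11:66616627-66616656, plus strand: gccattCCTGAGGAGGACTGCCGGTCGTTC
Coding genes that both have an established symbol:
PVRIG and STAG3, chr7:100219808-100219837, plus strand: taagaaGGGAATCAGCCACTTTGTGCTCAC
ASDURF and ASNSD1, chr2:189661480-189661508, plus strand: ttcaggGCTGAGCCATCCCGCGTgtcttg
IFITM2 and IFITM1, chr11:314051-314080, plus strand: ggaaagGAGGTCTCACTGAGCACCGTCCCA
A coding gene and a coding gene that has only a clone name:
ARL6IP1 and AC138811.2, chr16:18801490-18801519, minus strand: gaggacTCGTTGGGGAGGTGGCCTGCGCTT
TRIM59 and AC079594.2, chr3:160449772-160449801, minus strand: ctcgggGCGGCTCTCAGCATCCGCCTGGAG
YWHAH and Z82190.2, chr22:31944544-31944573, plus strand: ggggcgAGCCAGCGAGAGGGCGCGAGCGGc
A coding gene and a long non-coding RNA (lncRNA):
LMO7 and AL137782.1, chr13:75760329-75760358, plus strand: actatgCAATTTAGCCAATGAACACTAGGT
TP53I13 and ABHD15-AS1, chr17:29568248-29568277, plus strand: ttcatGATTCTGCCCCTCTTCTCATTGCAG
PGAM5 and AC135586.2, chr12:132710814-132710843, plus strand: gttcctCGCGGAGCGCCGTCGGGGCCGTGG
The signal values belong to whole windows of 50 bp that had only part of their bases in common. They were near each other in some of these pairs and far apart in others. TVP23C had 3.76 and its read-through gene TVP23C-CDRT4 had 3.52, the highest pair of values among the stretches shown, with 43 bases in common. TRIM59 had 2.66 and AC079594.2 had 2.65, with 41 bases in common. For IFITM2 and IFITM1, interferon-induced membrane proteins that restrict virus entry, the values were 2.75 and 1.33, with 25 bases in common. The letters GGAC, within the sequence context in which m6A is commonly placed, were searched on the sense strand of all 34 shared stretches. They stood in 5 of them, or 14.7%, against 10.9% of stretches of like lengths centred on the start in all 35116 start regions. These lengths were taken before the 1 chromosome was left out, so they need not match those of the 34 exactly. The longer form GGACT, which contains GGAC, stood in 2, or 5.88%, against 2.88%. The 34 came from 25 gene pairs, so they are not separate loci, and with so few the shares are descriptions of these stretches alone.

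Most gene pairs held at least 1 protein-coding gene. The largest class held pairs of coding genes of which at least 1 is a gene model that carries only a clone name. This class had 253 gene pairs, or 41.0% of 617 (37.2 to 44.9), and 934 window pairs. A clone name is the placeholder symbol of a gene model that has no established one. Of 261 clone-named coding genes in the table, 220 had a shared window, or 84.3%. Among coding genes with an established symbol the share was 619 of 6418, or 9.64%. Of the 220, 179 shared windows with 1 established coding gene, 34 with more than 1 and 7 with none. Leaving out every gene with a clone name, coding or not, took the members from 2977 to 1144 and the gene pairs from 617 to 229.

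Pairs of established coding genes numbered 98, as did pairs of a coding gene and a lncRNA. Read-through genes with 1 of their own parts made 68 pairs, and read-through genes with a further gene made 4. Together the pairs with a read-through symbol were 11.7% of gene pairs (9.37 to 14.4). There were 54 pairs without any coding gene, 27 of a coding gene and a pseudogene, and 9 of a coding gene and another kind such as a small nuclear RNA. In the remaining 6 pairs 1 symbol stood for 2 gene identifiers. By gene type alone, 418 pairs were coding with coding. The share of listed genes with a shared window was 12.6% for protein-coding genes, 26.8% for lncRNAs, 20.4% for pseudogenes and 42.1% for the 38 genes of other types.

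**Figure D1:**
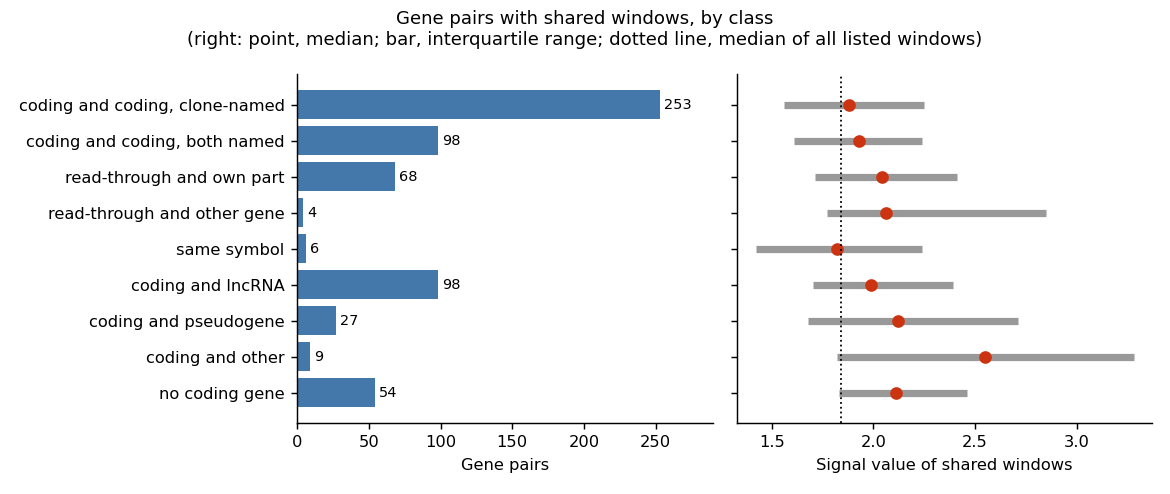
Left, the number of gene pairs in each class as bars. Right, the signal value of the shared windows of each class, with the median as a point and the interquartile range as a bar, and the median of all listed windows, 1.84, as a dotted line. The clone-named coding class is the largest with 253 pairs, and the class of a coding gene with another kind of gene, 22 windows, has the highest median at 2.55.

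The members had a slightly higher median signal value than the rest of the table. Because a second gene's window over some of the same bases also had to pass the limit on the q-value, a shift to stronger windows is partly built into the rule, and the values here describe the members without showing that sharing goes with stronger binding. Their signal values had a median of 1.95, with an interquartile range from 1.63 to 2.32 and a range from 0.71 to 5.51. The 23842 other windows had a median of 1.83, an interquartile range from 1.53 to 2.17 and a highest value of 9.46. A q-value of 0.001 or less stood beside 1549 members, or 52.0%, where the background of all listed windows was 43.7%. A signal value of 3 or more stood beside 146 members, or 4.90%, where the background was 3.20%. Within coding genes alone the medians were 1.92 for members and 1.83 for all windows. In the 418 genes with members and other windows, the median member was the higher in 277 and the lower in 125, and the median difference was 0.27. Of 2476 members in coding genes, 1495 fell inside the RefSeq interval of their own gene, and the place of the rest is not known. These 1495 lay at a like place to other windows. In the first 10% of the interval lay 33.0% of them, against 33.9% of 21055 other windows. The last 10% held 11.4% against 11.2%.

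High signal values were most frequent in classes with a pseudogene or a small RNA gene and in the small class of read-through genes with a further gene. That class had 5 of 21 windows (23.8%) at 3 or more, but it holds only 4 gene pairs, so these windows come from few loci. They include 3.74 and 3.08 of AP001931.1 and 3.38 of TMX2-CTNND1, 2 genes with windows over the same bases. By contrast, RBAK-RBAKDN reached no more than 2.14 and SENP3-EIF4A1 no more than 2.07. The class of a coding gene and a pseudogene had a median of 2.12 and 22 of 127 windows (17.3%) at 3 or more. The class of a coding gene and another kind of gene had 6 of 22 (27.3%), and the class without a coding gene 22 of 211 (10.4%). By comparison, the clone-named coding class had 51 of 1355 (3.76%). The highest value, 5.51, belonged to the lncRNA AC093620.1, whose single window overlapped a window of the lncRNA AC092171.1 with 3.90.

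CEP120, a centriole protein, had 2 windows. The stronger had 5.05 and overlapped 2 windows of KRT8P33, a processed pseudogene of a keratin gene, that had 0.91 and 1.89. The difference of 4.14 between windows with 37 bp in common was the largest of all 2162 window pairs. WDR74, a ribosome assembly factor, had windows at 4.82 and 4.60 over RNU2-2P, a U2 small nuclear RNA gene whose own window had 2.51. STEAP1B had 4.25, 4.21, 1.63, 1.54 and 0.82 in the windows it shared with EEF1A1P6, a processed pseudogene of the translation elongation factor EEF1A1, and the pseudogene had 4.78, 2.83 and 1.30. All 6 listed windows of STEAP1B lay outside its RefSeq interval, and the 5 shared ones lay inside that of EEF1A1P6. RAMACL, a coding gene similar to an activator of the mRNA cap methyltransferase, had 4.75 where RPS6KA2, a ribosomal S6 kinase, had 3.18. Pseudogenes and small nuclear RNA genes have near-identical copies elsewhere, and how reads that fit several places were handled is not given in the sources used here, so these values are uncertain.

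The table held 1 miRNA gene, and its window was a member. MIR4315-1 had 2.10 and PLEKHM1, an autophagosome and lysosome adaptor, had 1.69, with 37 bp in common at chr17:45475364-45475400 on the minus strand. RefSeq places the hairpin at chr17:45475363-45475435, so the common bases lie in it. They hold 0 of the 18 bases of the mature miRNA, which is shown with bases 2 to 8, the seed, in capitals.
hsa-miR-4315: cCGCUUUCugagcuggac
The mature sequence is the same for MIR4315-2.

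Signal values of overlapping windows were nearer to each other at overlaps of 30 bp or more than at shorter ones. The median absolute difference was 0.35 for overlaps of 1 to 9 bp (246 window pairs), 0.40 for 10 to 19 bp, 0.33 for 20 to 29 bp, 0.24 for 30 to 39 bp, 0.17 for 40 to 49 bp and 0.07 for the same 50 bp (60 window pairs). For comparison, windows that followed each other directly within 1 gene with a shared window, with no base in common, differed by a median of 0.35 (1355 pairs). The medians at overlaps under 30 bp, 0.33 to 0.40, lay near that value, and those from 30 bp upwards lay under it. The window pairs came from fewer gene pairs, with 115 at 20 to 29 bp and 17 for the same 50 bp, and no test was made. Over all 2162 window pairs the median absolute difference was 0.25, Pearson's r across window pairs was 0.586 and Spearman's rho was 0.592. These window pairs share libraries and bases and are not independent. In 668 window pairs, or 30.9%, 1 window had a q-value of 0.001 or less and the other did not.

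**Figure D2:**
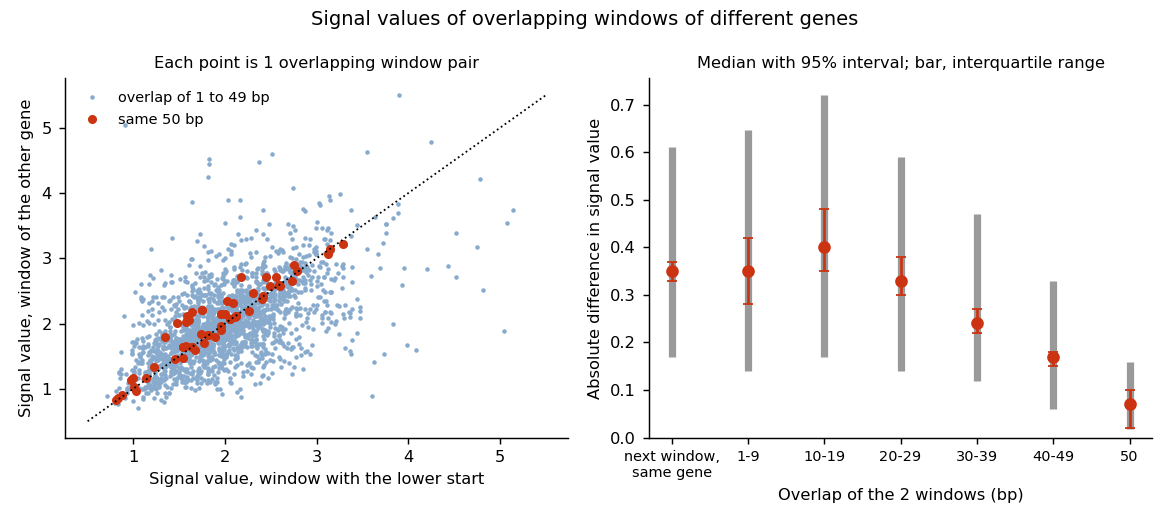
Left, for each of the 2162 window pairs, the signal value of the window with the lower start (horizontal) against that of the overlapping window of the other gene (vertical), with identical windows in red and the line of equality dotted. Right, the absolute difference in signal value by the number of bases in common, with the median and its 95% interval in red and the interquartile range in grey. The interval treats window pairs as independent, which they are not. The median falls from 0.40 at 10 to 19 bp to 0.07 for the same 50 bp.

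Identical windows showed how far a value depended on the gene under which the window was listed. Of 60 such pairs, 11 had the same signal value and 2 the same q-value, and 9 fell on different sides of a q-value of 0.001. In 10 gene pairs there were at least 2 identical windows, 53 in all. The difference between the genes was within 0.01 of that gene pair's own median in 34 of the 53. CHTF8, a subunit of a clamp loader for DNA replication, and DERPC differed by 0.02 in 6 of 6 windows, with DERPC the higher. PLEKHO2 and AC069368.1 differed by 0.09 or 0.10 in 6 of 6. For MTAP, an enzyme of methionine salvage, AL359922.1 was lower by 0.07 within 0.01 in 6 of 7 windows and equal in 1.

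SOD2, the mitochondrial superoxide dismutase, is listed under 2 gene identifiers, with 6 identical windows between chr6:159682520-159682569 and chr6:159693170-159693219 on the minus strand. The first identifier had 1.34, 1.57, 2.02, 1.61, 1.75 and 1.75 in these 6 windows, and the second had 1.79, 2.02, 2.34, 2.06, 2.20 and 2.20. The second was thus higher by 0.45 in 5 windows and by 0.32 in 1. ITGA1, an integrin subunit, and PELO, a ribosome rescue factor whose gene lies inside it, had the same value in 4 of 8 windows, and ITGA1 was higher by 0.15 or 0.16 in the other 4. The largest difference, 0.54, was that of UBE2V1, a ubiquitin-conjugating enzyme variant, over its read-through gene TMEM189-UBE2V1. The pseudogene ZNF286B was higher than FOXO3B by 0.53 in 3 of 4 windows and differed by -0.01 in the last.

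The number of windows tested for a gene, read from its p-values and q-values, also differed between genes of a pair. It came to 12 for UBE2V1 and 36 for TMEM189-UBE2V1. Their common window at chr20:50081825-50081874 had a p-value of 3.90e-08 and a q-value of 2.34e-07 for UBE2V1, and 3.64e-06 and 6.55e-05 for the read-through gene. These p-values and q-values are the authors' own.

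**Figure D3:**
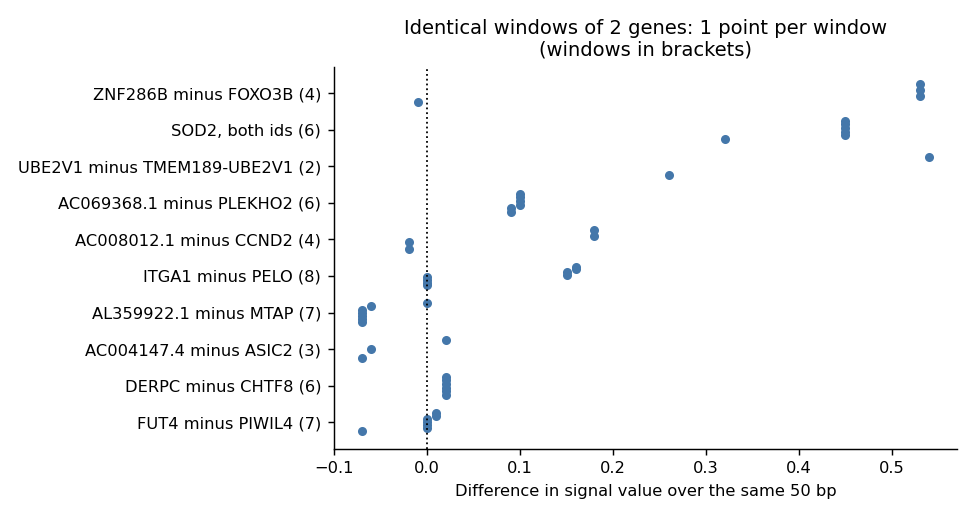
Difference in signal value over the same 50 bp between 2 genes, 1 point per window, for the 10 gene pairs with 2 or more identical windows. Points of CHTF8 and DERPC stack at 0.02, those of PLEKHO2 and AC069368.1 at 0.09 and 0.10, and 5 of 6 for SOD2 at 0.45.

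Read-through genes were nearly all members. The table lists 66, of which 59 had a shared window (89.4%), 7 of the 66 being lncRNAs. In these 59 genes, 175 of 225 listed windows were shared (77.8%), and in 36 genes every window was. The sharing fell to both ends alike: 84 windows were shared with the first-named gene alone, 77 with the last-named gene alone, 8 with both and 6 with a further gene alone. By gene, 26 shared with the first-named gene only, 23 with the last-named gene only and 9 with both. The windows thus mostly lay over 1 of the joined genes, and the other was often not listed: in 20 of the 59 the first-named gene had no window, in 20 the last-named had none, and in 19 both were listed. A window over a single part cannot tell the read-through transcript from that part.

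RBM14-RBM4 joins RBM14, a paraspeckle protein, to RBM4, a splicing regulator. All 9 of its windows were shared with RBM14 and none with RBM4, although RBM4 has 6 windows of its own in the table. Its values ran from 1.07 to 2.77 and those of RBM14 from 0.99 to 2.33. TMED7-TICAM2 joins TMED7, a cargo receptor of the secretory pathway, to TICAM2, an adaptor of Toll-like receptor 4. Of its 8 windows, 7 were shared with TMED7 and 1 with TICAM2. At the strongest point TMED7 had 3.07 and TMED7-TICAM2 2.99, and at the window of TICAM2 the values were 2.36 for TICAM2 and 2.12 for the read-through gene. The TICAM2 end was therefore listed by a single window of the read-through gene and 2 of TICAM2, the other with 1.77.

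Most of the other leading read-through genes shared windows with 1 of their parts alone. ATP5MF-PTCD1 had 8 of 9 windows over PTCD1, a mitochondrial RNA-binding protein, and ATP5MF, an ATP synthase subunit, had none listed. BLOC1S5-TXNDC5 had 6 of 7 over TXNDC5, a disulfide isomerase, TPTEP2-CSNK1E 7 of 9 over CSNK1E, casein kinase 1 epsilon, and NT5C1B-RDH14 5 of 5 over the retinol dehydrogenase RDH14. ANKHD1-EIF4EBP3 had 8 of 9 over ANKHD1, TGIF2-RAB5IF 7 of 9 over TGIF2, a transcriptional repressor, and ZNF8-ERVK3-1 6 of 9 over the zinc finger gene ZNF8. BIVM-ERCC5 was split, with 2 of 5 windows over BIVM and 3 over ERCC5, a DNA repair nuclease. TMX2-CTNND1 had 5 of 5 over CTNND1 (p120-catenin, a regulator of cadherin at cell junctions), all 5 also shared with the clone-named AP001931.1. At the strongest of these stretches TMX2-CTNND1 had 3.38, CTNND1 2.41 and AP001931.1 3.74, while CTNND1 had its own highest value, 3.29, at a later one. The 9 windows that TMX2-CTNND1 and AP001931.1 shared with each other made this the largest pair of a read-through gene and a further gene.

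Differences between a read-through gene and its part were large at some short genes. RPL36A, a ribosomal protein gene, had 1 window with 4.25, and RPL36A-HNRNPH2 had 1.81 with 37 of its 50 bp in common. At its other end, the read-through gene had 2.01 where HNRNPH2, a splicing regulator, had 2.15. CHURC1 had 4.09 and CHURC1-FNTB 1.59, in windows with 26 bp in common. POC1B-GALNT4 had its 4 windows over both POC1B, a centriole protein, and GALNT4, a glycosyltransferase.

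**Figure D4:**
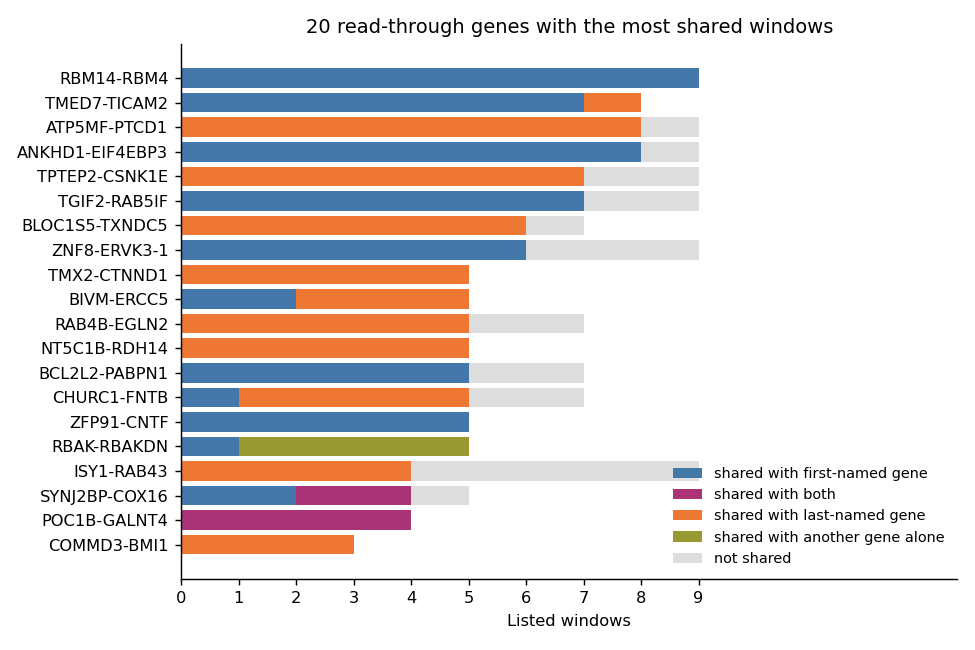
Listed windows of the 20 read-through genes with the most shared windows, as stacked bars coloured by the gene with which each window is shared. RBM14-RBM4 has 9 windows shared with its first-named gene, ATP5MF-PTCD1 has 8 with its last-named gene, and POC1B-GALNT4 has 4 with both.

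Some members had no base in the gene they were listed under, as RefSeq draws it. RefSeq's intervals on GRCh38.p14 gave 1 interval for the gene symbol of 1928 members, and 226 of these, or 11.7%, had no base inside it. Among the other windows this held for 407 of 22464, or 1.81%. A further 18 members crossed an end of the interval and 1 lay on another sequence, and these are not counted in the 226. Of the 226, 196 lay inside the RefSeq interval of a gene they were shared with. The 226 came from 80 genes, and in 52 of these no listed window had a base in the interval. Every member overlaps a window listed under another gene. The higher share among members and the place inside a partner's interval are therefore partly built into the rule. The annotation behind the authors' gene names is not given in the sources used here, and it may hold longer isoforms than the RefSeq intervals.

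PSMB9, an interferon-induced subunit of the immunoproteasome that cuts peptides for antigen presentation, had 9 listed windows. Of these, 6 were shared with the lncRNA PSMB8-AS1, at chr6:32844137-32845986, outside the RefSeq interval of PSMB9 (chr6:32854192-32859851) and inside that of PSMB8-AS1 (chr6:32844086-32846500). PSMB9 had 2.22, 2.33, 2.22, 2.82, 2.82 and 1.97 there, and PSMB8-AS1 had 2.12, 2.35, 2.45, 2.92, 2.85 and 1.98. Only 2 windows of PSMB9 lay inside its RefSeq interval, with 2.68 and 1.62, and neither was shared. The ninth, with 0.92, lay outside and was not shared.

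IFITM2 had 5 listed windows with 2.75, 1.30, 1.98, 0.85 and 1.46. All 5 lay at chr11:314032-315181, outside the RefSeq interval of IFITM2 (chr11:307816-309395) and over that of IFITM1 (chr11:314040-315272), apart from the first 8 bases. IFITM1 had 1 listed window, with 1.33, and it overlapped the first 2 of these. These genes are close paralogs, so reads can also be shared between their copies.

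Well-known genes with no window inside their own RefSeq interval were found in other pathways. HOXB7, a homeobox factor, had 9 windows with 0.92 to 2.80 at chr17:48622583-48626082, of which 8 were shared with HOXB9, another homeobox gene of the same cluster, whose RefSeq interval holds them and whose own 9 windows had 1.02 to 2.48. FADS2, a fatty acid desaturase, had 9 windows with 1.11 to 2.48, all inside the interval of FEN1, a flap endonuclease of DNA replication, and 4 of them shared with it, and FEN1 had 5 windows with 0.84 to 1.20. CDC42, a small GTPase of the cytoskeleton, had 3 windows with 1.91, 2.09 and 2.38, all shared with the lncRNAs LINC00339 and AL590556.3, and LINC00339 had 1.80, 2.12 and 2.38. TBC1D5, a regulator of RAB7, had 9 windows, of which 4 were shared with SATB1 (a chromatin organiser), and none was inside its own interval. DDX46, an RNA helicase of the spliceosome, had 7 windows with 1.65 to 2.91, all shared with C5orf24. PIWIL4 had 7 windows with 1.64 to 2.12, each identical in position to a window of FUT4, a fucosyltransferase. SUN1, a nuclear envelope protein, had 8 windows, of which 7 were shared with GET4, a factor for membrane protein targeting. The lncRNA LINC01118 shared all 6 of its windows with SOCS5, a cytokine signalling suppressor, and all 6 lay inside the interval of SOCS5. These genes were named after their values were seen.

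Of 21 listed genes of an IFN-γ signalling list, 1 had a shared window (4.76%), and of 12 listed antigen presentation genes 2 had (16.7%), against 14.0% of all listed genes. By window, 13 of 45 listed antigen presentation windows were shared (28.9%), all 13 in PSMB9 and TAP2, and 1 of 113 IFN-γ signalling windows (0.885%), against 11.1% of all listed windows. None of 18 listed genes of the m6A machinery had one. IRF9, the DNA-binding part of the complex ISGF3, had 1.52, 1.69 and 1.92. The last of these windows overlapped a window of AL136295.5 with 1.58, a clone-named coding gene that also shared 2 windows with RNF31, a ubiquitin ligase of NF-κB signalling. TAP2, a subunit of the transporter that carries peptides into the endoplasmic reticulum, had 8 windows with 1.01 to 1.89, 7 of them shared with 8 windows of AL669918.1 with 1.03 to 1.63. Over their 9 window pairs TAP2 was the higher in 6. MICA, a ligand of the receptor NKG2D, shared 2 windows, 1.95 and 1.71, with the lncRNA HCP5, whose 1 shared window had 0.99. That window lay outside the RefSeq interval of HCP5 and inside that of MICA. HCP5 had 9 listed windows, with 0.99 to 2.50. This pair was named after its values were seen.

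**Figure D5:**
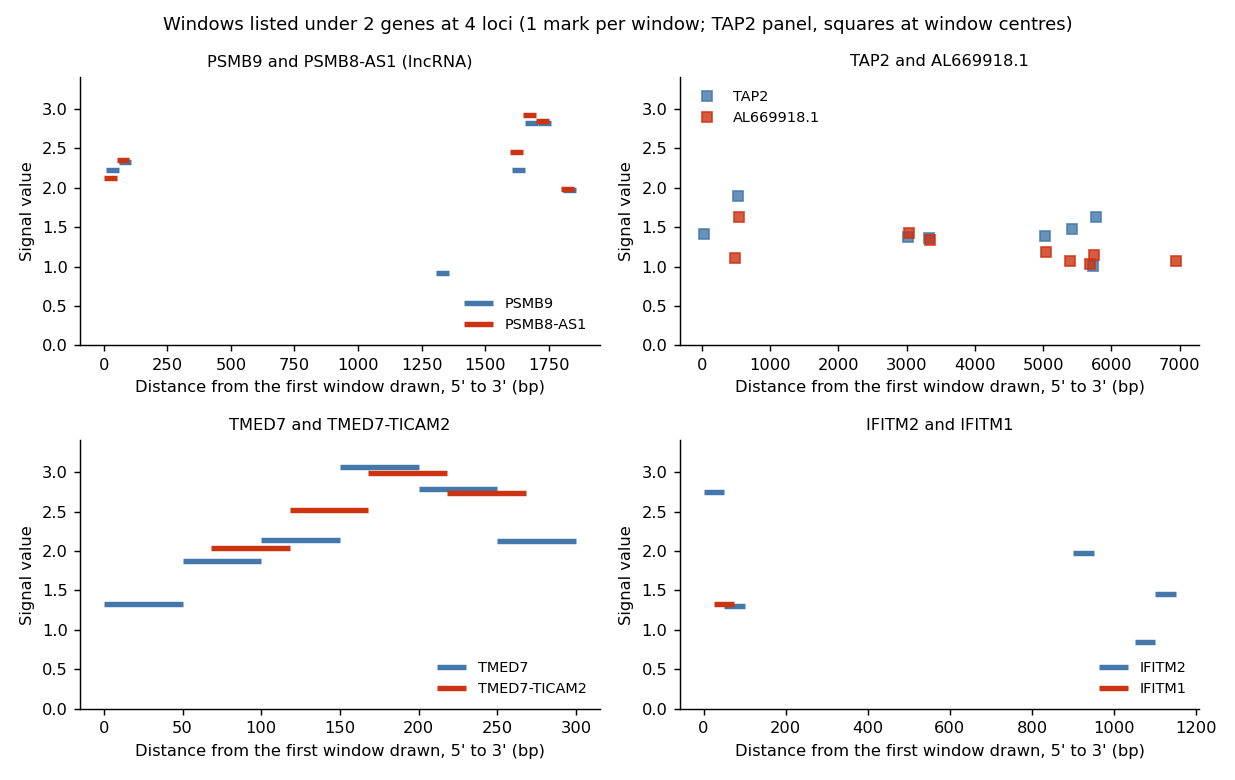
Signal values of the windows listed under 2 genes at 4 loci, against the distance from the first window drawn, in the direction of transcription. Marks are windows of 50 bp, drawn to scale except in the TAP2 panel, where squares mark their centres, and the first gene is blue and the second red. The 2 windows of PSMB9 inside its RefSeq interval and the windows of TMED7 and TMED7-TICAM2 outside the stretch with their strongest windows are not drawn. PSMB9 and PSMB8-AS1 rise together to 2.82 and 2.92, TMED7 and TMED7-TICAM2 to 3.07 and 2.99, and IFITM1 has 1 window over the first 2 of IFITM2.

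In the γ-protocadherin cluster, a row of cell adhesion genes in which alternative first exons are spliced to common last exons, all 8 listed genes had shared windows, and all 23 of their windows were members. No exon annotation was used, so whether a window lies in a first or a common exon was not tested. PCDHGA1, PCDHGA2, PCDHGA3, PCDHGA4, PCDHGB1 and PCDHGB2 formed the largest group of linked genes, with 21 windows in 4 joined regions and values from 1.70 to 2.93. At the region near chr5:141362372-141362421, windows of all 6 genes met: PCDHGA1 had 2.31, PCDHGA2 1.70, PCDHGA3 2.22, PCDHGA4 2.47, PCDHGB1 1.94 and PCDHGB2 2.05. PCDHGC3 and PCDHGC4 shared 1 identical window at chr5:141511048-141511097, with 2.06 and 2.07, apart from the other 21 at chr5:141350361-141362442.

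Linked through shared windows, the 1058 genes fell into 487 groups, of which 417 had 2 genes, 59 had 3 and 11 had 4 or more. Counting each group once would take the listed genes from 7550 to 6979. CPNE1, a calcium-dependent membrane-binding protein, RBM12, an RNA-binding protein, and the clone-named AL109827.1 had the most members of any group, 25 windows, at low values of 0.98 to 1.80. MRPS6, a mitochondrial ribosomal protein, SLC5A3, a myo-inositol transporter, and the lncRNA AP000317.2 had 23, with 1.54 to 2.36. LRRC8C and LRRC8D, subunits of the volume-regulated anion channel, had 22 with the clone-named AC093423.2 and AC093423.3, with 1.33 to 3.02. ZNF664, RFLNA and AC068790.8 had 20, with 1.13 to 2.69. All 6 windows of RFLNA lay outside its RefSeq interval and inside that of ZNF664.

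Of the pairs with the most members in their class, EGLN1, the main oxygen sensor of the HIF pathway, shared all 9 of its windows with AL445524.2. EGLN1 had 0.85 to 2.39 and AL445524.2 had 1.14 to 2.32. OPN3, an opsin, and CHML, a RAB escort protein, shared all 9 windows each, offset by 1 bp, with 1.59 to 2.78 for OPN3 and 1.62 to 2.69 for CHML. OPN3 was the higher in 8 of their 13 window pairs, some of which have only 1 bp in common. ITPRIPL2 shared 8 of 9 windows with the lncRNA AC099518.3, and NPIPA1, of a recently duplicated gene family, shared 8 of 9 with the pseudogene AC138932.1. All 9 windows of NPIPA1 lay outside its RefSeq interval. AC010655.2 and AC010655.4 led the pairs without a coding gene with 16 windows, and VPS37B and AC027290.2 led those with another kind of gene with 4. MFSD14A, a membrane transporter, and AC118553.2 held the highest value of the clone-named coding class: MFSD14A had 1.19 to 3.14 in 5 windows and AC118553.2 had 2.40 to 3.95 in 4, and AC118553.2 was the higher in all 7 window pairs. NRAD1 and AL512506.3 held that of the coding and lncRNA class, 3.90 in the coding AL512506.3. The 2 windows of NRAD1 lay outside its RefSeq interval and inside that of the pseudogene DGKZP1. MATR3, a nuclear matrix RNA-binding protein, and ATXN7, a subunit of the SAGA complex, are each listed under 2 identifiers. The 2 ATXN7 entries had medians of 2.45 and 2.45 over 7 windows each, and those of MATR3 had 1.52 and 1.65 over 9 each.

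For 640 genes, or 60.5% of those with a shared window, no listed window was theirs alone. Of these, 481 were protein-coding, 137 of them clone-named, 97 were lncRNAs, 46 were pseudogenes and 16 were of other types. In 176 of the 487 groups this held for every gene of the group. Among the 218 gene pairs with 4 or more window pairs, 44, or 20.2%, had no window pair in which the order of the genes turned. The table lists at most 9 windows for a gene: 145 of the 1058 genes (13.7%) were at that limit, against 11.9% of all listed genes, so further windows of these genes may be shared.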

How the data were processed

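RNA bound to YTHDF1 and input RNA of SNU638 cells were sequenced after ribosomal RNA depletion with a stranded kit. The submitters' processing notes name STAR 2.7.3a and GRCh38, and the window caller and the annotation are not given in the sources used here. The authors deposited 1 table with 50 bp windows: a signal value (a score of unstated scale), p-values, q-values of 0.05 or less, and other columns with window bounds (starts counted from 0, printed here from 1). It has 0 columns of values per library. Depth is unknown.

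Overlaps were found by position on 1 strand with Python 3.11.15, pandas 2.3.3, NumPy 2.4.6 and SciPy 1.17.1, in code tested on simulated windows against a direct comparison of every window pair. A symbol counted as read-through when it split at hyphens into known symbols of the table or of RefSeq, older symbols included. Windows tested per gene were the listed windows times q over p at the largest p, for genes under 9 listed windows. Medians have order-statistic and shares Wilson 95% intervals, where given, which do not cover replicate spread. Sequences and intervals are RefSeq's on GRCh38.p14.

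The members, lists and tests were chosen with earlier results of these data known. Genes named were, per class, the pair with the most shared windows and the pair with the strongest, the 5 groups with the most shared windows, the 10 leading read-through genes, genes of the IFN-γ, antigen presentation, m6A and shared-exon lists with a shared window, and the 3 largest differences over identical windows. Genes shown for their sequence, their strongest windows, their identical windows or their RefSeq interval were added after their values were seen. The read-through genes NT5C1B-RDH14, CHURC1-FNTB and POC1B-GALNT4 are outside these rules and were added in the same way. Alternatives were another minimum overlap, stricter q-values, main chromosomes, a looser read-through rule and other units of counting.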

Additional observations from a re-analysis of the deposited data

How the results depend on the processing

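No paired analysis was possible because the deposited windows carry no values of single libraries; leaving out a replicate was not possible for the same reason. Of 39 values under alternatives, 21 stayed within 1.5 times the main count or inside the main value's interval. With identical windows alone there were 120 shared windows, 17 gene pairs, 22 genes with shared windows alone and 60 regions, the median signal value was 2.00, the median absolute difference 0.07 and the share with q of 0.001 or less 54.2%. With an overlap of 25 bp or more, the difference was 0.21 and that share 54.7%. With windows of q of 0.001 or less alone there were 1273 shared windows, 355 gene pairs, 438 regions and a median of 2.31. The counts fall because fewer windows enter. One value per joined region, its highest, gave a median of 2.15. Added after seeing the data, leaving out clone-named genes gave 1144 windows, 229 gene pairs and a median of 1.98, and leaving out genes with 9 listed windows a median of 1.98. The share of pairs with a read-through symbol ran from 11.2% to 13.2% under the 5 alternatives run for it. Depth per library being unknown, no value here has an error from replicates.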
